A study of Homo sapiens with 24 samples.

Results

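HL60 cells that had received clorgyline after 5-Aza-CdR were compared with HL60 cells that had received 5-Aza-CdR alone, on Illumina HumanHT-12 V4 expression arrays. The comparison rests on 4 of the 24 arrays of the series, picked by their titles: 2 of the combinatorial treatment and 2 of 5-Aza-CdR alone. HL60 (HL-60 in the labels) is an established human promyelocytic leukemia line, so all of these arrays describe a single line. Both groups had been given 0.1 µM 5-Aza-CdR for 24 hours. After its removal, the cells of the combinatorial treatment were given fresh 10 µM clorgyline each day. RNA was taken at day 18. The spread was estimated from all 8 HL60 arrays, which add 2 arrays of clorgyline alone and 2 of untreated control cells. The remaining 16 arrays hold T24 bladder carcinoma and HCT116 colon carcinoma cells. The labels do not say whether the 2 arrays of a condition came from separate cultures, so p-values measure only the spread between these arrays, which may be technical.

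5-Aza-CdR (decitabine) is a cytidine analog that is built into DNA during replication and traps DNA methyltransferases there, so that methylation is lost as cells divide. Clorgyline is a monoamine oxidase inhibitor that also blocks LSD1 (KDM1A), a related flavin-dependent enzyme that removes methyl groups from lysine 4 of histone H3 and works within the CoREST complex. In myeloid cells LSD1 is brought to DNA by the repressor GFI1, and its inhibition is known to favor differentiation. HL60 cells are arrested at a stage at which azurophil (primary) granules and their proteins are made. The question was which transcripts differ when clorgyline is given to cells that have also been exposed to the demethylating agent. Whether LSD1 was inhibited in these cells is not measured by the arrays.

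The deposited log2 values of the 8 arrays had a lowest value of 6.91 and a median of 7.53 on each array, and their sorted values differed by at most 0.0052, which hides any shift in the amount of RNA that a cell holds. A probe near that median lies close to the lowest signal, where differences are compressed. The 2 arrays of a condition correlated at 0.993 to 0.995. Mates differed by more than 1 on the log2 scale at 13 probes for the combinatorial treatment, 207 for 5-Aza-CdR, 2 for clorgyline and 12 for control, and none of the probes called below was among the 207. Of the 9 promyelocyte markers that were measured (MPO, ELANE, AZU1, PRTN3, CTSG, MYC, SPI1, MS4A3 and CEBPE), all 9 lay above the median, at mean levels of 8.69 to 15.86. Carcinoma markers lay at background except CAV1 (1 of 7 above the median), as did the 3 erythroid markers. The 3 monocyte markers that were measured (CD14, CSF1R and FCGR1A) lay a little above the median, at 7.68 to 8.43, and the 4 eosinophil markers (CLC, EPX, IL5RA and PRG2) at 8.14 to 15.81. No marker of these 5 sets passed the test of the comparison. In such bulk samples, a change in the share of cells of one kind and a change in RNA per cell cannot be told apart.

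With limma over all 47229 probes, the combinatorial treatment stood higher than 5-Aza-CdR alone at 610 transcripts (1.29%) and lower at 518 (1.1%), at a Benjamini-Hochberg adjusted p under 0.05. The differences were small: by the limits of the study's methods, a fold change over 2 with an unadjusted p under 0.01, 24 transcripts (0.0508%) were up-regulated and 9 (0.0191%) down-regulated. Counted as genes, each by its brightest probe, 419 of 20045 (2.09%) were higher and 336 (1.68%) were lower. The median difference was 0.53 among the 419 and -0.52 among the 336. All of them lay among the 12213 genes above the median level, of which they are 3.43% and 2.75%, and a share of a gene list near these values is no result about that list. In every called gene the arrays of the 2 groups did not overlap. That also held in 9095 of all 20045 genes and 6428 of the 12213, so it adds nothing to a call. The counts of called transcripts rest on few arrays. Without combination replicate 1 only 176 transcripts were called, without 5-Aza-CdR replicate 1 508 and without 5-Aza-CdR replicate 2 496, against 872 to 1004 without any 1 of the other 5 HL60 arrays. Of the 102 named genes that passed, 33 kept their calls whichever of the 8 arrays was left out: ABCA1, AGPAT5, BCL11A, CA8, CD3D, CEACAM6, CERKL, DEFA1, DEFA1B, DEFA3, DEFA4, DEFB1, DNMT3L, DUSP1, EGR1, FOS, HSPA1B, ID2, IGLL1, JUN, KCNAB1, KLF10, PIR, PKM, RNU1-1, RNU1-3, RNVU1-18, RNVU1-7, RNY1, SLC30A1, TIPARP, TRIM21 and UBE2L6. The other 69 lost them without at least 1 array, most often combination replicate 1 (67 genes).

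The genes highest with the combinatorial treatment were, apart from PIR, of 3 kinds: immediate early genes, noncoding RNAs and defensins. Among the lowest were CERKL, ABCA1, APP and KCNAB1. The plot of the extreme genes shows the 15 at each end, array by array.

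**Figure D1:**
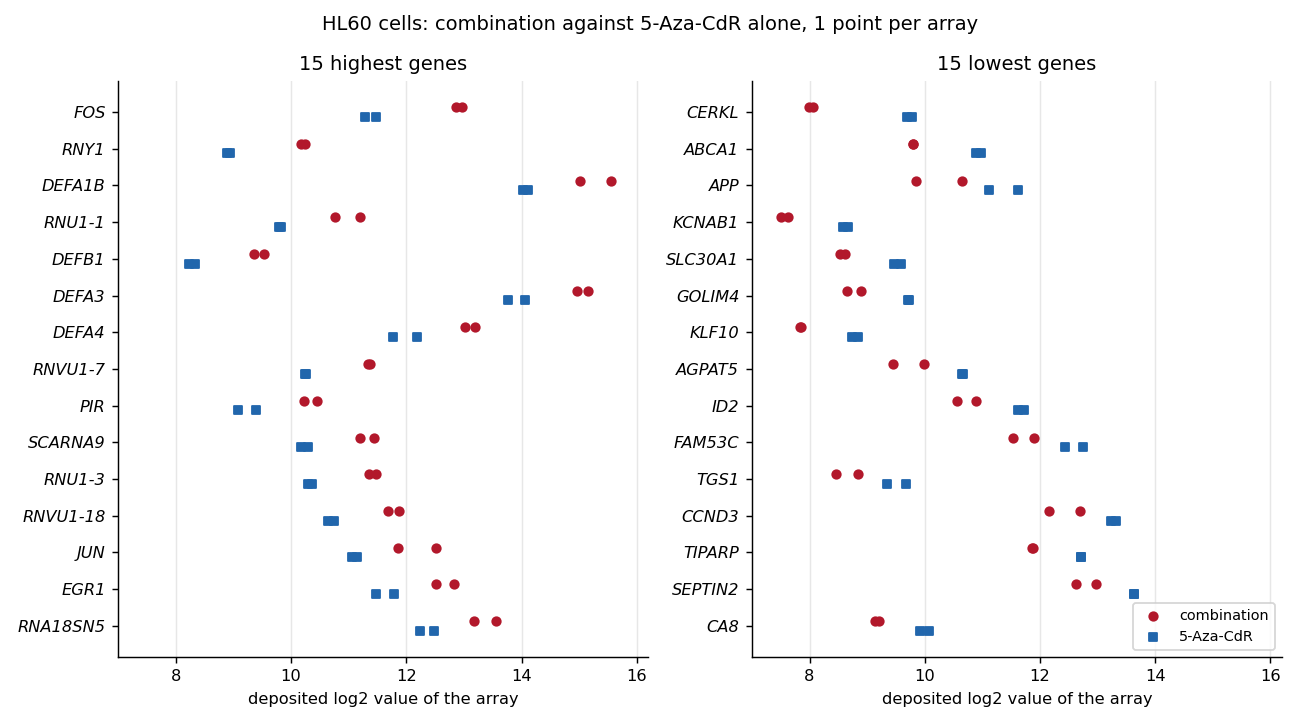
Deposited log2 values of the 15 genes with the largest positive (left) and the 15 with the largest negative (right) difference between the combinatorial treatment (circles) and 5-Aza-CdR alone (squares) in HL60 cells, 1 point per array and 2 arrays per group, among genes past an adjusted p of 0.05. In all 30 genes the 2 groups do not overlap, as also in 9095 of all 20045 measured genes. FOS differs by 1.54 and CERKL by -1.70 on the log2 scale.

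FOS and JUN encode the subunits of AP-1, a transcription factor that is induced within minutes of a stimulus, and EGR1 and DUSP1 are induced along with them. FOS had log2 values of 12.97 and 12.86 with the combinatorial treatment, against 11.28 and 11.47 with 5-Aza-CdR alone. It was the gene with the largest positive difference, 1.54 ± 0.10 (SE), a fold of 2.91 (adjusted p = 0.000203). The groups lay far apart relative to the distance between mates.

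JUN had 11.85 and 12.51 with the combinatorial treatment, against 11.06 and 11.15 with 5-Aza-CdR (difference 1.08 ± 0.17, adjusted p = 0.0104). EGR1, a zinc finger transcription factor, had 12.51 and 12.83, against 11.48 and 11.79 with 5-Aza-CdR (1.03 ± 0.16, adjusted p = 0.0087). DUSP1, a phosphatase that switches off MAP kinases, had 12.29 and 12.43, against 11.76 and 11.63 with 5-Aza-CdR (0.66 ± 0.10, adjusted p = 0.00875). In each of these genes, as in all genes called higher, both arrays of the combinatorial treatment lay above both of 5-Aza-CdR. In JUN the 2 arrays of the combinatorial treatment were farther apart than in the others. KLF10, a Krüppel-like factor of the same group, was lower, at 7.85 and 7.83, against 8.73 and 8.84 with 5-Aza-CdR (-0.95 ± 0.08, adjusted p = 0.000908). Its 2 values with the combinatorial treatment were close to the array median. At another probe KLF10 differed by -0.31 and did not pass (adjusted p = 0.0929).

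Of 34 measured AP-1 and immediate early genes, 4 were higher (11.8%) and 1 was lower (2.94%), with a median difference of 0.13, beside -0.01 over all genes. The count stayed at 4 higher and 1 lower with any 1 of the 8 arrays left out. The inducible heat shock proteins HSPA1B (0.84, adjusted p = 0.00195) and its co-chaperone DNAJB1 (0.46, adjusted p = 0.0339) were the 2 of 34 chaperones that rose; the call of DNAJB1 was lost without any 1 of the 4 arrays compared (adjusted p up to 0.166). HSPA1B has a near-identical copy, HSPA1A, so its signal may belong to either.

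Compared with the other conditions, these genes were not at their highest with the combinatorial treatment. FOS was at 13.59 and 13.65 with clorgyline alone and at 11.56 and 11.80 in control cells. JUN was at 12.92 and 13.25 with clorgyline and at 10.15 and 10.05 in control cells. DUSP1 was at 13.51 and 13.40 with clorgyline, against 10.55 and 10.31 in control cells. In all 3 genes, the arrays of clorgyline alone lay above those of the combinatorial treatment, and clorgyline made a smaller difference in cells with 5-Aza-CdR than in cells without it for JUN (by -1.91, adjusted p = 0.0104) and DUSP1 (by -2.36, adjusted p = 7.25e-05). For FOS the 2 differences, 1.54 with 5-Aza-CdR and 1.94 without it, were not shown to differ (adjusted p = 0.536). EGR1 stood apart: it was at 13.06 and 13.32 in control cells, and with 5-Aza-CdR it was lower than in control cells by a difference of -1.55 (adjusted p = 9.05e-05). With the combinatorial treatment both of its arrays lay below those of control cells, but that difference, -0.52, did not pass (adjusted p = 0.0585).

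**Figure D2:**
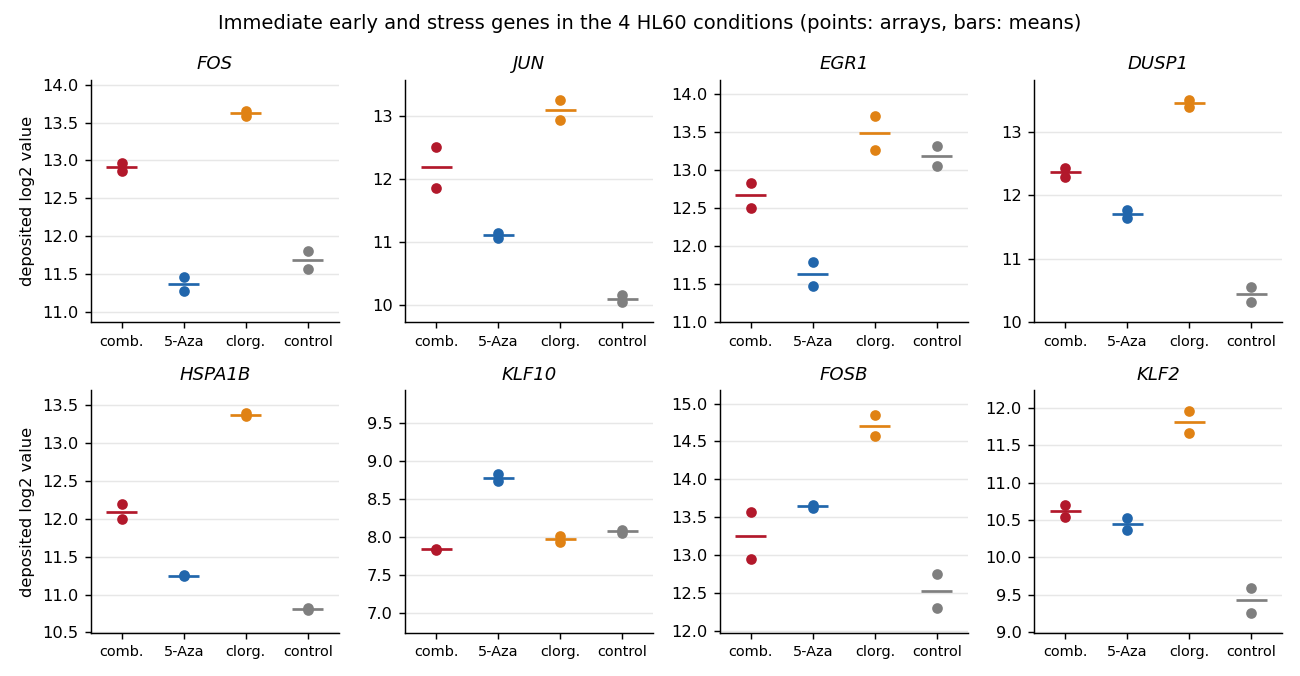
Deposited log2 values of 8 immediate early and stress genes in the combinatorial treatment, 5-Aza-CdR, clorgyline and control arrays of HL60 cells (points are arrays, 2 per condition; bars are means; each panel has its own range of the axis). FOS, JUN, EGR1, DUSP1 and HSPA1B lie above, and KLF10 below, their 5-Aza-CdR values in the combinatorial treatment, while FOSB and KLF2 did not pass that test.

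The promoters of 2 of the genes that rose are shown because they hold known stimulus-responsive elements. They come from RefSeq (GRCh38.p14) and span 250 bases before the annotated start and 50 after it, read 5′ to 3′ on the gene's strand. In EGR1 (chr5:138465229-138465528, plus strand) the capitals mark 2 matches to the core of the serum response element (SRE), at -105 to -96 and -83 to -74 from the start. In DUSP1 (chr5:172771146-172771445, minus strand) they mark the cyclic AMP response element (CRE, TGACGTCA) at -125 to -118.
EGR1: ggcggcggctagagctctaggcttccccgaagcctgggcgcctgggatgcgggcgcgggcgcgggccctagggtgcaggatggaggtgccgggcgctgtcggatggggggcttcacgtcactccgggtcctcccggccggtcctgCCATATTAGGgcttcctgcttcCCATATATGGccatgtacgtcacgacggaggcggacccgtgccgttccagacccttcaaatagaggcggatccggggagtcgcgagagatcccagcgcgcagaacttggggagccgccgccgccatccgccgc
DUSP1: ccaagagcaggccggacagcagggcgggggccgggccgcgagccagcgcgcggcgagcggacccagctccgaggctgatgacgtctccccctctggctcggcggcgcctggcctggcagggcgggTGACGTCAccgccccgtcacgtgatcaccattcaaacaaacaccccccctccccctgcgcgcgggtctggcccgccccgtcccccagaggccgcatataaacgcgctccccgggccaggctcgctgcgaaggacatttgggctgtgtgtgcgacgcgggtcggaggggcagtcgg
The SRE core was found in 1.6% of 313 promoters of genes that were higher, 0.733% of 273 promoters of genes that were lower and 1.22% of all 15033 promoters at hand, and the CRE in 3.19%, 4.76% and 2.66%. Both elements were added to the motifs after the data had been seen. A match describes the sequence and is not evidence of binding.

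Small noncoding RNAs formed the list with the largest share of members that rose: 10 of 30 measured RNAs were higher (33.3%) and 0 lower, with a median difference of 0.33. Most are RNAs without a poly(A) tail, among them U1, which recognizes 5′ splice sites. RNU1-1 had 11.20 and 10.77 with the combinatorial treatment, against 9.79 and 9.82 with 5-Aza-CdR (1.17 ± 0.14, adjusted p = 0.00332). The probes of the U1 genes RNU1-3 and RNVU1-18 (1.08 each) gave like differences, as did that of RNVU1-7 (1.10), which is not on the list, and since these genes are near-identical copies their probes may read the same RNA. RNY1, a Y RNA of the Ro ribonucleoprotein that is not on the list either, had 10.24 and 10.17, against 8.95 and 8.89 with 5-Aza-CdR (1.29 ± 0.15, adjusted p = 0.00289). In these genes, as in all called genes, the groups did not overlap.

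Further members of the list that rose were SCARNA9, which guides modification of spliceosomal RNAs (1.08, adjusted p = 0.0218), the U6 gene RNU6-1 (0.72, adjusted p = 0.0137), the U3 gene SNORD3A (0.65, adjusted p = 0.0201), RN7SK, which holds the elongation factor P-TEFb inactive (0.60), and the vault RNA VTRNA1-1 (0.56). The U3 copies SNORD3D (0.64) and SNORD3C (0.54) complete the 10. The U1 probes were also higher with clorgyline than in control cells, by 0.95 for RNU1-1 (adjusted p = 0.00885) and 1.27 for RNU1-3 (adjusted p = 0.000487), and lower with 5-Aza-CdR than in control cells. The 18S ribosomal RNA probe, RNA18SN5, read 13.56 and 13.18 with the combinatorial treatment, against 12.48 and 12.23 with 5-Aza-CdR (1.02 ± 0.15, adjusted p = 0.00718). It moved with the small RNAs, and what RNA recovery or priming contributed was not tested. The call of SCARNA9 was lost without any 1 of the 4 arrays compared (adjusted p up to 0.0932), those of RNU6-1 and SNORD3A without either array of the combinatorial treatment or 5-Aza-CdR replicate 1 (up to 0.106) and that of RNA18SN5 without combination replicate 1 (0.0619). Of the list, 3 were higher without combination replicate 1, 4 without 5-Aza-CdR replicate 1, 6 without 5-Aza-CdR replicate 2, and 8 to 10 without any 1 of the other 5 arrays.

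TGS1, the enzyme that hypermethylates the caps of small nuclear RNAs, was lower, at 8.46 and 8.84 with the combinatorial treatment, against 9.35 and 9.68 with 5-Aza-CdR (-0.87 ± 0.19, adjusted p = 0.0359). Its call was lost without 5-Aza-CdR replicate 2 or combination replicate 1 (adjusted p up to 0.259). At another probe TGS1 differed by -0.11 and did not pass. Of 67 ribosomal protein genes, 1 rose, RPL37 (0.58, adjusted p = 0.0289), and the median of the list was -0.00.

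Defensins are small antimicrobial peptides, and the alpha-defensins are stored in the azurophil granules of neutrophils. DEFA1B had 15.01 and 15.56 with the combinatorial treatment, against 14.02 and 14.10 with 5-Aza-CdR (1.22 ± 0.17, fold 2.33, adjusted p = 0.00609). DEFA3 had 14.96 and 15.15, against 13.76 and 14.06 with 5-Aza-CdR (1.14 ± 0.15, adjusted p = 0.00418). DEFA4 had 13.20 and 13.02, against 11.77 and 12.18 with 5-Aza-CdR (1.13 ± 0.15, adjusted p = 0.00528). No array of the combinatorial treatment overlapped one of 5-Aza-CdR in these genes, and their calls held with any 1 HL60 array left out. DEFA1, DEFA1B and DEFA3 are near-identical copies whose signals cannot be separated, and all 3 DEFA1B probes rose.

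The same probes already stood high with 5-Aza-CdR alone. DEFA3 was at 11.73 and 12.12 with clorgyline and at 10.20 and 10.50 in control cells, so 5-Aza-CdR lay above control by 3.56 on the log2 scale (adjusted p = 1.8e-08). With clorgyline DEFA3 was also higher than in control cells, by 1.58 (adjusted p = 0.000272), whereas DEFA4 differed by 0.06 between clorgyline and control cells (adjusted p = 0.948). DEFB1, a beta-defensin best known from epithelia, rose to 9.36 and 9.54, against 8.22 and 8.33 with 5-Aza-CdR (1.17 ± 0.10, adjusted p = 0.000547), and it was near the array median with clorgyline (7.73 and 7.62) and in control cells (7.55 and 7.71).

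Of 20 primary granule genes, 6 rose (30%) and 1 fell (5%), with a median of 0.32. DEFA1 and DEFA3, whose signals cannot be separated, count as 2 of the 6, and RNASE2 is counted again among eosinophil genes below. Besides the defensins DEFA1, DEFA3 and DEFA4, the 6 are CST7, a protease inhibitor (0.70, adjusted p = 0.0181), PRSS57, a neutrophil serine protease (0.62, adjusted p = 0.012), and RNASE2, an antiviral ribonuclease of eosinophils (0.56, adjusted p = 0.0367). LYZ, lysozyme, was lower, at 9.78 and 9.43 with the combinatorial treatment, against 10.53 and 10.11 with 5-Aza-CdR (-0.72 ± 0.14, adjusted p = 0.0239). Other members of the list did not pass: the bactericidal protein BPI differed by 0.46 (adjusted p = 0.051), the elastase ELANE by 0.27 (adjusted p = 0.492) and the promyelocyte marker MS4A3 by 0.26 (adjusted p = 0.332). The promyelocyte markers MPO, AZU1, PRTN3 and CTSG did not pass either. With each of the 8 arrays left out in turn, 3 (without combination replicate 1) to 7 of the 20 were higher and 0 or 1 lower. The call of RNASE2 was lost without any 1 of the 4 arrays compared or of the 2 control arrays (adjusted p up to 0.222), that of CST7 without 5-Aza-CdR replicate 1 or combination replicate 1 (up to 0.123), that of PRSS57 without 5-Aza-CdR replicate 2 or combination replicate 1 (up to 0.1) and that of LYZ without 5-Aza-CdR replicate 1 or combination replicate 2 (up to 0.128).

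**Figure D3:**
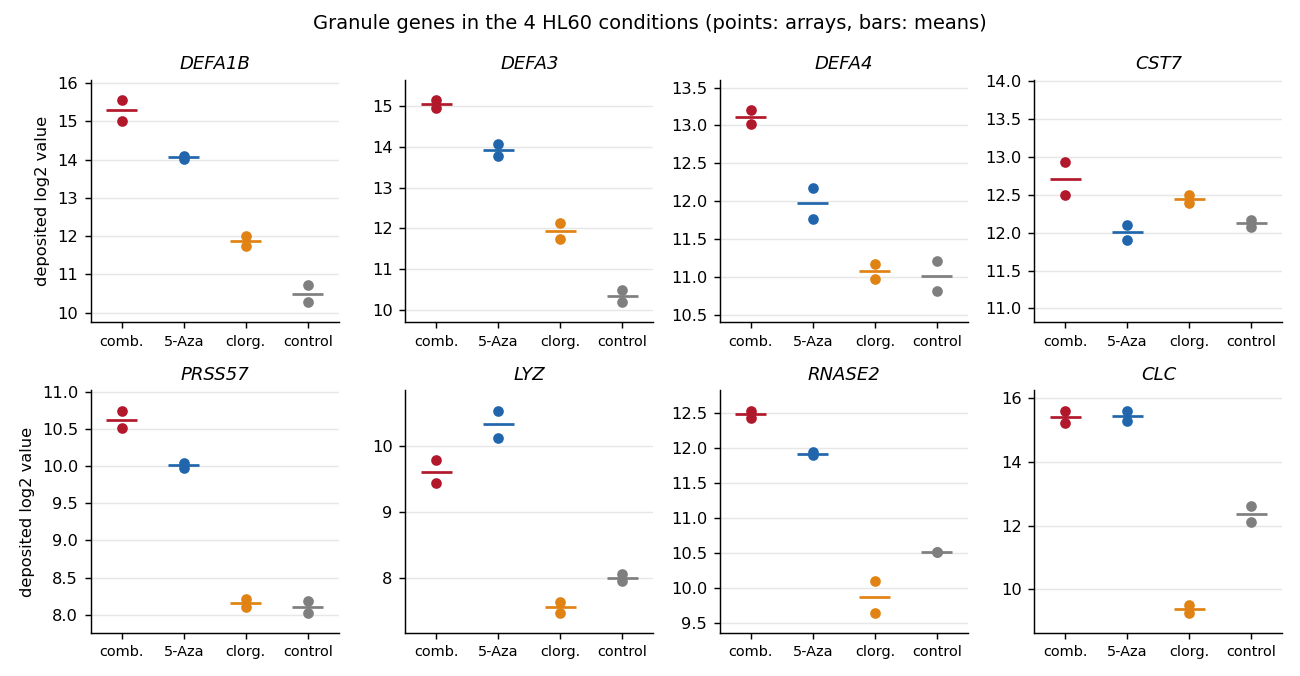
Deposited log2 values of 8 granule genes in the combinatorial treatment, 5-Aza-CdR, clorgyline and control arrays of HL60 cells (points are arrays, 2 per condition; bars are means; each panel has its own range of the axis). The defensins, CST7, PRSS57 and RNASE2 lie above, and LYZ below, their 5-Aza-CdR values in the combinatorial treatment, and CLC lies at the same height in both, well above its clorgyline values.

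Secondary and tertiary granule genes gave 1 of 23 higher, the adhesion molecule CEACAM6, at 9.01 and 9.03 with the combinatorial treatment, against 8.23 and 8.36 with 5-Aza-CdR (0.72 ± 0.10, adjusted p = 0.00473). Of 27 S100 proteins and annexins, S100A8 (0.64, adjusted p = 0.0112) and ANXA6 (0.53, adjusted p = 0.0106) rose, while S100A9, the partner of S100A8 in calprotectin, differed by 0.39 (adjusted p = 0.0869). The eosinophil, basophil and mast cell list gave 4 of 24 higher (16.7%) and 0 lower: RNASE2, PRG3, a homolog of eosinophil major basic protein (0.52, adjusted p = 0.0238), and the mast cell tryptases TPSAB1 (0.58, adjusted p = 0.015) and TPSB2 (0.46, adjusted p = 0.0342), which have near-identical sequences. Both tryptases were near background with 5-Aza-CdR: TPSAB1 had 8.31 and 8.06 with the combinatorial treatment, against 7.52 and 7.68 with 5-Aza-CdR. The median of this list was 0.00, and its count was 0 without combination replicate 1 or 5-Aza-CdR replicate 1, 2 without 5-Aza-CdR replicate 2 and 3 without any 1 of the others. CLC, the Charcot-Leyden crystal protein of eosinophils, had 15.24 and 15.61 with the combinatorial treatment, against 15.28 and 15.59 with 5-Aza-CdR (-0.01, adjusted p = 0.994).

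Genes known from lymphoid cells gave 4 of 46 higher (8.7%) and 0 lower, with a median of -0.01. IGLL1, part of the surrogate light chain of B cell precursors, had 13.59 and 13.48 with the combinatorial treatment, against 12.66 and 12.82 with 5-Aza-CdR (0.80 ± 0.09, adjusted p = 0.00289). CD3D, a subunit of the T cell receptor complex, had 10.06 and 10.15, against 9.32 and 9.30 with 5-Aza-CdR (0.79 ± 0.09, adjusted p = 0.00289). It passed at 1 of its 3 probes, and another differed by 0.02. CD37 (0.70, adjusted p = 0.006) and the cytotoxic granule protein NKG7 (0.54, adjusted p = 0.0127) were the others. Other lymphoid markers did not move with them: of the 4 measured defining markers (CD3D, CD3E, CD79A and MS4A1), CD3E and MS4A1 were not above the array median, and 1, CD3D, passed.

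Among 49 myeloid and hematopoietic transcription factors, 3 rose (EGR1, BCL11A and RXRA) and 3 fell (ID2, LYL1 and NFE2). BCL11A, a zinc finger repressor, had 11.11 and 11.29 with the combinatorial treatment, against 10.37 and 10.41 with 5-Aza-CdR (0.81 ± 0.09, adjusted p = 0.00289). It passed at 1 of its 3 probes, and another differed by 0.13. ID2, an inhibitor of basic helix-loop-helix factors, had 10.90 and 10.55, against 11.71 and 11.62 with 5-Aza-CdR (-0.94 ± 0.11, adjusted p = 0.00289), and both of its probes fell. LYL1 (-0.66, adjusted p = 0.0272) and the erythroid and megakaryocyte factor NFE2 (-0.62, adjusted p = 0.0234) were also lower. SPI1, which encodes the myeloid factor PU.1, had 12.24 and 11.53, against 11.08 and 11.21 with 5-Aza-CdR (0.74 ± 0.18), and did not pass (adjusted p = 0.0513). GFI1, CEBPA and CEBPE differed by -0.11, 0.11 and 0.24, with adjusted p of 0.797, 0.79 and 0.494.

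Lists of surface receptors, monocyte genes, cytokines and erythroid genes had shares close to or under those of all genes above the median level, except for the cytokines that were lower (5.56%). These shares are of all measured members, of which 43 of 52, 25 of 32, 30 of 54 and 21 of 40 lay above the median level. Beside that baseline they are therefore understated. Of the surface receptors and oxidase genes, 1 of 52 was higher (1.92%) and 2 lower (3.85%): the integrin chain ITGAX rose (0.48, adjusted p = 0.0211), and the chemokine receptor CXCR4 (-0.72, adjusted p = 0.0122) and the immunoglobulin-like receptor LILRA2 (-0.70, adjusted p = 0.0111) fell. The monocyte and macrophage list gave 1 of 32 higher, the adaptor TYROBP (0.38, adjusted p = 0.0428), and 1 lower, LYZ. TYROBP did not pass when only the 4 arrays compared were fitted. Of 54 cytokine and NF-kB genes 2 rose (NFKBIZ and SOD2) and 3 fell, the chemokine CCL2 (-0.64, adjusted p = 0.0475), VEGFA (-0.57, adjusted p = 0.0434) and the cytokine OSM (-0.54, adjusted p = 0.0209). Of the genes fixed by name, LST1, MNDA, CHI3L1, SRGN, GLRX and RAB32 differed by -0.11 (MNDA) to 0.31 (GLRX), with adjusted p of 0.175 to 0.918. ANXA1, an annexin of neutrophils, had 12.39 and 12.30 with the combinatorial treatment, against 12.41 and 12.56 with 5-Aza-CdR (-0.14, adjusted p = 0.706), whereas it was higher with clorgyline than in control cells (1.75, adjusted p = 6.31e-06). In the erythroid and megakaryocyte list the erythropoietin receptor EPOR rose (0.63, adjusted p = 0.0283) and the transferrin receptor TFRC fell (-0.61, adjusted p = 0.0132), 1 each of 40.

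The largest negative difference was that of CERKL, a relative of ceramide kinase. It had 8.06 and 7.99 with the combinatorial treatment, against 9.69 and 9.77 with 5-Aza-CdR (-1.70 ± 0.13, a fold of 0.307, adjusted p = 0.000392), and with clorgyline (9.59 and 9.14) and in control cells (9.99 and 9.73) it was above the combinatorial treatment too. ABCA1, which exports cholesterol from cells, had 9.79 and 9.80, against 10.90 and 10.97 with 5-Aza-CdR (-1.13 ± 0.09, adjusted p = 0.000392). KCNAB1, an accessory subunit of potassium channels, had 7.63 and 7.50, which is at the array median, against 8.58 and 8.66 with 5-Aza-CdR (-1.06 ± 0.10, adjusted p = 0.00156). The groups were well apart in all 3 genes, though 1 of 4 probes of CERKL and 1 of 4 of KCNAB1 passed.

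APP, the amyloid precursor protein, had 9.84 and 10.65 with the combinatorial treatment, against 11.11 and 11.62 with 5-Aza-CdR (-1.12 ± 0.21, adjusted p = 0.0212). Here mates differed widely, and the call was lost without 5-Aza-CdR replicate 2 or combination replicate 1 (adjusted p up to 0.118). Another probe of APP differed by -0.88 and did not pass (adjusted p = 0.0578). SLC30A1, the zinc exporter ZnT1, had 8.53 and 8.61, against 9.46 and 9.58 with 5-Aza-CdR (-0.95 ± 0.10, adjusted p = 0.00177), with both probes lower. The Golgi protein GOLIM4 (-0.95), the lysophosphatidic acid acyltransferase AGPAT5 (-0.94), TIPARP, a target of the aryl hydrocarbon receptor (-0.83), the G1 cyclin CCND3 (-0.85), the cytoskeletal GTPase SEPTIN2 (-0.83, but only -0.20 at another bright probe, which did not pass), the carbonic anhydrase relative CA8 (-0.83) and FAM53C (-0.89) complete, with KLF10, ID2 and TGS1, the 15 lowest genes, with adjusted p of 0.00195 to 0.0211. Of these 7, AGPAT5, TIPARP and CA8 kept their calls with every array left out. Those of GOLIM4, FAM53C, CCND3 and SEPTIN2 were lost without combination replicate 1, the last 3 also without 5-Aza-CdR replicate 1 and the last 2 also without 5-Aza-CdR replicate 2 (adjusted p up to 0.159). At another probe GOLIM4 differed by -0.17 and did not pass.

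Genes of DNA replication and mitosis gave 7 of 74 lower (9.46%) and 0 higher, with a median of -0.15. The mitotic kinase CDK1 had 11.16 and 10.94 with the combinatorial treatment, against 11.44 and 11.70 with 5-Aza-CdR (-0.52 ± 0.11, adjusted p = 0.0309). RRM2, a subunit of ribonucleotide reductase (-0.64, adjusted p = 0.0198), PLK4, the kinase of centriole duplication (-0.52, adjusted p = 0.0194), HMMR (-0.48, adjusted p = 0.0442), the helicase subunits MCM6 (-0.47, adjusted p = 0.0352) and MCM4 (-0.38), and the cyclin CCNA2 (-0.42, adjusted p = 0.032) were the others. At an unadjusted p under 0.05, 30 of the 74 were lower and 7 higher. The count rested on single arrays: with each array left out in turn it was 0 without 5-Aza-CdR replicate 2 or combination replicate 1, 4 without 5-Aza-CdR replicate 1 or combination replicate 2, and 5 to 7 without any 1 of the others. CDK1 was also lower with clorgyline than in control cells (-0.66, adjusted p = 0.0155).

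The promoter of CDK1 (chr10:60778081-60778380, plus strand, GRCh38.p14) is shown because it holds the E2F sequence TTTCGCGC, in capitals, at 20 to 27 bases after the start. E2F factors drive genes of the S and G2 phases.
CDK1: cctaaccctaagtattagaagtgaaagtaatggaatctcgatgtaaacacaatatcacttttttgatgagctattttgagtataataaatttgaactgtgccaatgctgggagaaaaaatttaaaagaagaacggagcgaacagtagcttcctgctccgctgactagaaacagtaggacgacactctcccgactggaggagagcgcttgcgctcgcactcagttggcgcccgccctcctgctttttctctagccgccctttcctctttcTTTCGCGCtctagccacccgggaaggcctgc
On either strand, that sequence was found in 10 of 273 promoters of genes that were lower (3.66%), 1 of 313 promoters of genes that were higher (0.319%) and 127 of 15033 promoters of all measured genes (0.845%). All measured genes include those not above the median level, among which none was called.

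Of 24 genes that take up, activate or break down deoxycytidine analogs, the nucleoside transporter SLC29A2 rose (0.56, adjusted p = 0.0151), and RRM2 and the dUTPase DUT (-0.50, adjusted p = 0.0195) fell. Of 26 genes of the DNA methylation machinery, the catalytically inactive partner DNMT3L fell, at 7.91 and 7.86 with the combinatorial treatment, against 8.63 and 8.45 with 5-Aza-CdR (-0.65 ± 0.09, adjusted p = 0.00569), and the cytidine deaminase APOBEC3C rose (0.36, adjusted p = 0.0441). APOBEC3C did not pass when only the 4 arrays compared were fitted. DNMT1, the target of 5-Aza-CdR, had 13.72 and 14.19, against 14.33 and 14.33 with 5-Aza-CdR (-0.37 ± 0.16, adjusted p = 0.348). DNMT3A, DNMT3B and UHRF1, which brings DNMT1 to replicated DNA, differed by 0.05, 0.18 and -0.39, and did not pass.

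No gene of the LSD1, CoREST and monoamine oxidase list passed (0 of 26; at an unadjusted p under 0.05, 1 was higher and 7 lower). KDM1A itself had 11.93 and 12.02 with the combinatorial treatment, against 12.24 and 12.30 with 5-Aza-CdR (-0.30 ± 0.09, adjusted p = 0.121). MAOA and MAOB, the other targets of clorgyline, lay at background in every array, at 7.34 to 7.48 and 7.34 to 7.53 in the 4 arrays compared. These arrays measure transcripts, not the activity of the enzymes. Of 73 histone genes, 29 HOX genes, 48 germline genes and 37 epithelial and mesenchymal genes, 0 passed in limma, with 4, 2, 6 and 2 past an unadjusted p of 0.05.

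Metabolic genes moved both ways. Of 35 glycolysis and hypoxia genes, 2 rose (5.71%) and 6 fell (17.1%), with a median of -0.18. PKM, pyruvate kinase of glycolysis, had 12.14 and 12.33 with the combinatorial treatment, against 11.33 and 11.54 with 5-Aza-CdR (0.80 ± 0.11, adjusted p = 0.00554), and all 3 of its probes rose. The glucose transporter SLC2A1 had 9.77 and 10.08, against 10.68 and 10.73 with 5-Aza-CdR (-0.78 ± 0.12, adjusted p = 0.00923). The transporter SLC2A3 (-0.56, adjusted p = 0.0399), VEGFA, the oxygen-regulated factor HIF1A (-0.54, adjusted p = 0.0294), BNIP3 (-0.50, adjusted p = 0.0242) and the histone demethylase KDM3A (-0.47) were lower as well. The lactate dehydrogenase LDHA differed by -0.18 (adjusted p = 0.518). Of the list, 1 was lower without combination replicate 1 or 5-Aza-CdR replicate 1, 2 without 5-Aza-CdR replicate 2, and 4 or 5 without any 1 of the others.

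PIR, pirin, an iron-binding nuclear protein, had 10.44 and 10.22 with the combinatorial treatment, against 9.08 and 9.40 with 5-Aza-CdR (1.09 ± 0.14, fold 2.13, adjusted p = 0.00427), and it was likewise higher with clorgyline than in control cells (1.06, adjusted p = 0.00384). Both of its probes rose, and the call held with any 1 array left out. Its promoter (chrX:15493284-15493583, minus strand, GRCh38.p14) is shown with the AP-1 sequence TGANTCA in capitals, at 29 to 35 bases after the start. Among promoters of genes that were higher that sequence was found in 6.71%, among those of genes that were lower in 4.4%, and among all in 5.85%.
PIR: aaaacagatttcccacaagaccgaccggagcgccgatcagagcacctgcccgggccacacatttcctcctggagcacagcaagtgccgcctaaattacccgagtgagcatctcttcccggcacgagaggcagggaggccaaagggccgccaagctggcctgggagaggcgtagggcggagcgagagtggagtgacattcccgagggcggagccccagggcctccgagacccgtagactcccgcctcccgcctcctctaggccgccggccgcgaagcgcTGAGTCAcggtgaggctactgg
Of 29 metallothionein and oxidative stress genes, 4 rose (13.8%): the superoxide dismutases SOD1 (0.46, adjusted p = 0.0319) and SOD2 (0.44, adjusted p = 0.0448), the quinone reductase NQO1 (0.44, adjusted p = 0.0367) and GCLM, a subunit of the enzyme that starts glutathione synthesis (0.49, adjusted p = 0.0372). SLC30A1 was the 1 that fell. With an array left out, 0 (without combination replicate 1) to 3 genes of the list were higher, and 1 without either 5-Aza-CdR array.

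In the cholesterol and lipid list the synthesis enzymes LSS (0.66, adjusted p = 0.00611), MVD (0.43, adjusted p = 0.02) and MSMO1 (0.39, adjusted p = 0.044) rose and ABCA1 fell, 3 and 1 of 34, with a median of 0.00. Of 37 p53 targets and apoptosis genes, the survival factor BCL2L1 rose (0.52, adjusted p = 0.026). Of 36 amino acid response genes, VEGFA alone passed.

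Cancer testis antigens are expressed in germ cells, are mostly X-linked and are silenced by DNA methylation elsewhere. Of 80 measured, 8 rose (10%) and 0 fell, with a median of 0.05. GAGE12F had 12.59 and 12.55 with the combinatorial treatment, against 12.03 and 12.17 with 5-Aza-CdR (0.47 ± 0.09, adjusted p = 0.0186), and it was at background with clorgyline (7.35 and 7.27) and in control cells (7.30 and 7.25). VCX3A had 9.97 and 9.71, against 9.29 and 9.29 with 5-Aza-CdR (0.55 ± 0.10, adjusted p = 0.0174). PAGE2B (0.53, adjusted p = 0.0254), VCX2 (0.48, adjusted p = 0.0289), CT45A3 (0.47, adjusted p = 0.0257), VCX3B (0.46, adjusted p = 0.0272), VCX (0.44) and PAGE5 (0.42) were the others, and the members of each family share sequence. Of the 80, 0 were called without combination replicate 1, 1 without 5-Aza-CdR replicate 1, 3 without combination replicate 2, 4 without 5-Aza-CdR replicate 2, and 7 or 8 without any 1 of the others. TKTL1, a transketolase relative, differed by 0.03 (adjusted p = 0.963), and GTSF1, which acts in the piRNA pathway, by 0.29 (adjusted p = 0.41).

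Of 78 interferon-stimulated genes, 3 rose (3.85%) and 0 fell, beside 2.09% and 1.68% of all 20045 genes. Of the 78, 56 lay above the median level, and of all genes above it 3.43% rose and 2.75% fell. UBE2L6, the conjugating enzyme of ISG15, had 10.27 and 10.43 with the combinatorial treatment, against 9.44 and 9.57 with 5-Aza-CdR (0.84 ± 0.10, adjusted p = 0.00289). It passed at 1 of its 3 probes, and another differed by -0.01. TRIM21, a ubiquitin ligase that binds antibodies in the cytosol, had 9.74 and 9.41, against 8.73 and 8.79 with 5-Aza-CdR (0.81 ± 0.11, adjusted p = 0.006). LY6E was the third (0.61, adjusted p = 0.006), while IFI6 differed by 0.47 (adjusted p = 0.0901). IFIT1 differed by -0.09 (adjusted p = 0.79), and IFI27 was at background, at 7.43 and 7.41 with the combinatorial treatment, against 7.49 and 7.51 with 5-Aza-CdR. Among 38 genes of interferon signaling IRF3 (0.49, adjusted p = 0.0139) and STAT5A (0.47, adjusted p = 0.0137) rose and IRF1 fell (-0.67, adjusted p = 0.015). Of 30 antigen presentation genes, CD74, the invariant chain (0.51, adjusted p = 0.00964), and TAPBP, tapasin (0.41, adjusted p = 0.0295), rose.

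**Figure D4:**
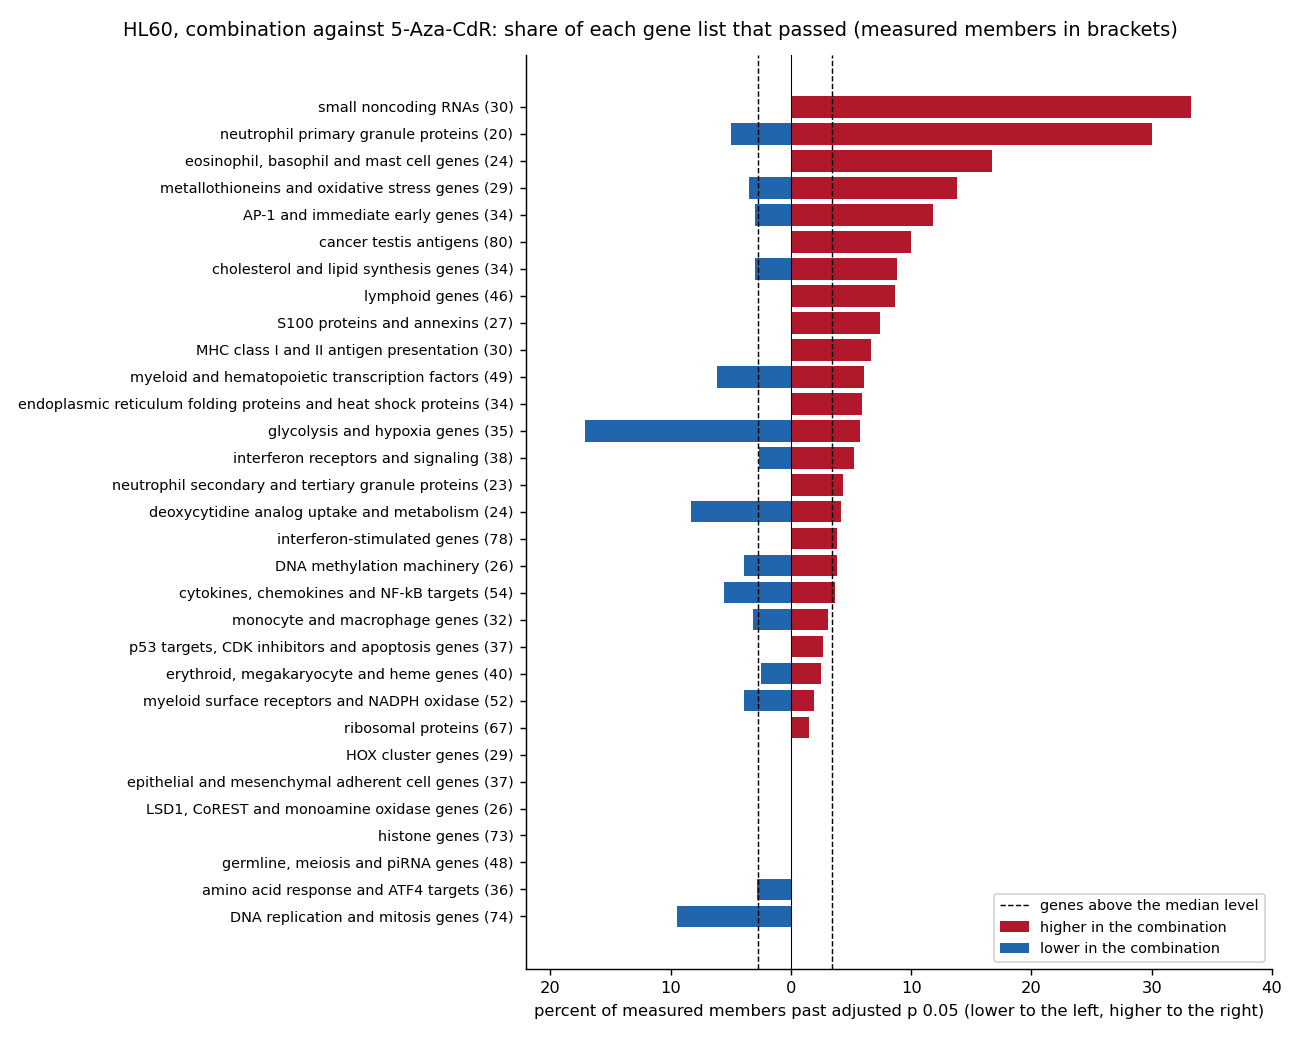
Share of the measured members of each of 31 gene lists that passed an adjusted p of 0.05 in the comparison of the combinatorial treatment with 5-Aza-CdR in HL60 cells, higher to the right and lower to the left, in percent. Dashed lines give the shares among all genes above the median level, 3.43% higher and 2.75% lower. The bars take in all measured members, also those not above that level, so lists with many such members are understated beside the lines. The bars of small noncoding RNAs (33.3%) and primary granule genes (30%) reach farthest to the right and that of glycolysis and hypoxia genes (17.1%) farthest to the left. Copies of U1 and of U3, and DEFA1 and DEFA3, count singly though their probes may read the same RNA.

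Clorgyline could be followed a second time in this line, in cells without 5-Aza-CdR, since the arrays of clorgyline alone and control are separate from the 4 compared above. There 144 genes (0.718%) were higher and 80 (0.399%) lower. Of the 419 genes higher in the combinatorial treatment, 339 (80.9%) also had a positive difference between clorgyline and control, and of the 336 lower genes 281 (83.6%) had a negative one, beside a same sign in 58.3% of all genes and 62.3% of those above the median level, where all the called genes lie. Of the 419 genes, 46 passed in the same direction and 3 in the opposite one, and of the 336 genes 25 and 3, beside 185 and 39 of all 20045 genes. Across all 20045 genes the 2 differences correlated at 0.365 (Pearson), which describes these arrays; genes are not independent replicates. The median difference with clorgyline alone was 0.20 among the 419 and -0.16 among the 336.

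The test of the difference between these 2 differences called 25 genes (0.125%) whose response to clorgyline was more positive with 5-Aza-CdR than without it and 35 (0.175%) whose response was more negative. Of the 60, 33 had passed in the comparison of the combinatorial treatment with 5-Aza-CdR. The test called 80 transcripts in all, and with an array left out from 20 (without control replicate 2 or clorgyline replicate 1) to 128 (without 5-Aza-CdR replicate 1). Among the 10 highest and 10 lowest genes of that comparison, 5 were called. The genes were picked for being extreme in that comparison, whose difference enters this test, which favors such a call. DEFB1 differed by 1.17 in cells with 5-Aza-CdR and by 0.05 in cells without it (difference 1.13, adjusted p = 0.00797). The others were CERKL (-1.70 with 5-Aza-CdR and -0.49 without it, adjusted p = 0.0305), ABCA1 (-1.13 and -0.32, adjusted p = 0.0258), SLC30A1 (-0.95 and 0.00, adjusted p = 0.021) and KLF10 (-0.95 and -0.10, adjusted p = 0.0206).

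Of the 60, all but those 5 are named here after their values had been seen. Among the 35, FOSB, an AP-1 subunit, had 12.94 and 13.57 with the combinatorial treatment, against 13.63 and 13.66 with 5-Aza-CdR, and 14.84 and 14.57 with clorgyline, against 12.75 and 12.30 in control cells. KLF2, a Krüppel-like factor, which had 10.70 and 10.54, against 10.52 and 10.36 with 5-Aza-CdR, was at 11.96 and 11.66 with clorgyline, against 9.59 and 9.26 in control cells. Both were higher with clorgyline than in control cells (FOSB by 2.18 and KLF2 by 2.38), and neither passed in cells with 5-Aza-CdR. PPP1R15A, KLF6, TSC22D3, KLF4, SGK1, RGS1 and SOCS3 also rose with clorgyline alone and did not pass in the comparison of the combinatorial treatment with 5-Aza-CdR.

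In 6 genes both comparisons passed with opposite signs: TIPARP, BHLHE40, PLEK, RAB7B, RNASE2 and PRG3. TIPARP differed by -0.83 between the combinatorial treatment and 5-Aza-CdR and by 0.70 between clorgyline and control, BHLHE40 by -0.54 and 0.99, PLEK by -0.47 and 0.56, and RAB7B by 0.42 and -0.59. RNASE2 and PRG3 rose in the comparison with 5-Aza-CdR (0.56 and 0.52) and fell with clorgyline alone (-0.64, adjusted p = 0.0378, and -0.52, adjusted p = 0.0419). CLC was lower with clorgyline, at 9.27 and 9.50, than in control cells, at 12.10 and 12.62 (-2.97, adjusted p = 3.35e-06), beside -0.01 in cells with 5-Aza-CdR (difference of the 2 differences 2.96, adjusted p = 0.000287). In cells with 5-Aza-CdR it lay near the highest value of the arrays, where a rise would hardly show. IGLL1, CD3D, CD74, LGALS1, PPP1R1B and MYL12A rose in cells with 5-Aza-CdR and did not pass in cells without it.

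**Figure D5:**
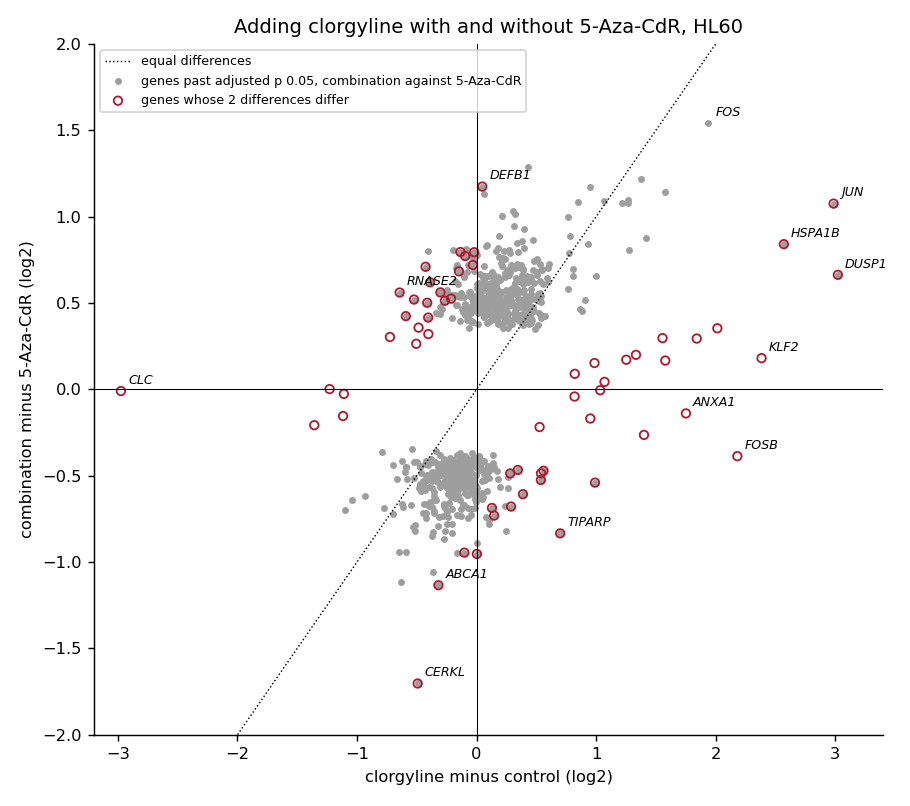
Difference between clorgyline and control (horizontal axis, log2) and difference of the combinatorial treatment from 5-Aza-CdR (vertical axis, log2) in HL60 cells for the 419 genes higher and the 336 lower in the combinatorial treatment (grey) and for the 60 genes whose 2 differences differ at an adjusted p of 0.05 (red circles); the dotted line marks equal differences. FOS lies near the line, JUN, DUSP1, HSPA1B, KLF2 and FOSB lie far to its right, and CLC lies far to its left.

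The same comparison in T24 cells, which were given 1 µM 5-Aza-CdR, differed from that in HL60 cells at 624 genes (3.11%) in which the HL60 difference was the more positive and 539 (2.69%) in which it was the more negative; the line and the dose cannot be told apart. Of the 419 genes higher in HL60, 150 had a positive difference in T24, and of the 336 lower genes 144 had a negative one. A same sign was found in 9519 of all 20045 genes and in 5584 of the 12213 above the median level, where all the called genes lie. In T24's own test, 21 of the 419 passed in the same direction and 12 in the opposite one, and of the 336 1 and 10. Of all 20045 genes, 227 passed in the same direction and 227 in the opposite one, and of the 12213 189 and 179. FOS differed by 1.54 in HL60 and by -0.70 in T24 (difference 2.24, adjusted p = 0.000774). Of the 10 highest and 10 lowest genes in HL60, 18 differed in this test. PIR, with 1.09 in HL60 and 0.24 in T24 (adjusted p = 0.0577), and FAM53C, with -0.89 and -0.10 (adjusted p = 0.162), did not pass it. The test called 1728 transcripts in all, 707 without T24 5-Aza-CdR replicate 2 and 754 without T24 combination replicate 2. Of the 6 cancer testis antigens with the largest differences among those called in HL60, 5 had a larger difference in T24 (VCX3A, VCX3B, VCX2, PAGE2B and CT45A3, adjusted p up to 0.000397), and GAGE12F, with 0.47 in HL60 and 0.58 in T24, was not shown to differ (adjusted p = 0.886). VCX3A differed by 0.55 in HL60 and by 3.14 in T24 (difference -2.59, adjusted p = 7.81e-06) and VCX3B by 0.46 and 3.24 (adjusted p = 9.68e-08). IFI27 differed by -0.08 in HL60 and by 2.54 in T24 (adjusted p = 8.05e-05). DEFA1B differed by -0.03 and DEFA4 by 0.01 in T24.

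The genes that were higher and those that were lower differed in build as well, which is given as a description. All measured genes, set beside them, include those not above the median level, among which none was called. Values for the genes above that level alone were not taken, so a difference from all measured genes was not tested apart from level. The annotated span of the 419 higher genes had a median of 14.5 kb, that of the 336 lower genes 43.7 kb and that of all measured genes 22.1 kb. For the genes that passed between clorgyline and control, the medians were 14.3 kb (higher) and 16.9 kb (lower). On chromosomes 16, 19 and 22 there were 30, 52 and 21 higher genes and 7, 17 and 5 lower ones, of 804, 1400 and 454 measured. On chromosomes 10 and 13 there were 4 and 1 higher genes and 19 and 9 lower ones, of 756 and 346. A CpG-rich promoter (an observed to expected CpG ratio of at least 0.6) was found in 74.4% of the promoters of higher genes, 87.9% of those of lower genes and 66.2% of all. Of the other sequences searched on both strands, the PU.1 sequence GAGGAAGT was in 2.24%, 2.2% and 2.53% of higher, lower and all promoters, the GFI1 sequence AAATCNNNG in 7.67%, 6.96% and 8.57%, the C/EBP sequence TTNCNNAA in 24%, 22.7% and 30.6%, and the interferon-stimulated response element GAAANNGAA in 8.95%, 4.03% and 7.01%.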

How the data were processed

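Transcript levels were read from Illumina HumanHT-12 V4 arrays. The deposited values are log2 intensities that the authors had normalized by robust spline normalization, per the labels and the study's methods. The submitters' processing notes name lumi 2.8.0 for the HL60 arrays and lumi 2.6.0 for the others, so levels were set across lines only as differences within each line. HL60 arrays came to 47231 probes, of which 2 with missing values were left out. Doses and times come from the study's methods, groups from the sample labels.

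The 8 HL60 arrays were fitted together (limma 3.58.1, R 4.3.3), each condition having its own mean (4 residual and 8.01 prior degrees of freedom), and p-values were adjusted by Benjamini-Hochberg over 47229 probes. Calls used an adjusted p under 0.05. The methods' limits, an unadjusted p under 0.01 and a fold over 2, were given beside them. The comparison with T24 used 1 fit of the 16 HL60 and T24 arrays. Symbols came from the platform annotation, which can be old: 30112 probes had 1 symbol, 8 several and 17109 none, and probes without 1 symbol were counted but not named. A gene was read by its brightest probe, and its other probes need not have passed. Of 3 probes, all passed for IGLL1, PKM and DEFA1B. For UBE2L6, CD3D, BCL11A, LSS, CD74, TAPBP and VCX3A 1 of 3 did, and for VCX2 1 of 7. Arrays give no read depth, and 2 arrays per condition limit the precision.

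The named genes were the 15 with the largest positive and the 15 with the largest negative difference among those called, up to 6 called members of each of 31 lists by size of difference, and a set fixed by name. RN7SK, VTRNA1-1, MCM4, KDM3A, VCX, PAGE5 and, in the comparisons with clorgyline and with T24, genes other than the 10 highest and 10 lowest were chosen after their values were seen. Members and lists were chosen with earlier results of these data known. Promoters (RefSeq, GRCh38.p14) were matched by symbol for 313 of the 419 higher, 273 of the 336 lower and 15033 of all 20045 genes. Alternatives were a second quantile normalization, a common median, probes above the median probe, stricter limits, only the 4 arrays, all 24 arrays, a trended robust prior, a replicate block, 1 probe per gene and each array left out. The scripts were tested on simulated data. HCT116 arrays entered only the fit of all 24 arrays.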

Additional observations from a re-analysis of the deposited data

Results flagged for a closer look

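Among the 10 genes with the largest positive and the 10 with the largest negative difference between the combinatorial treatment and 5-Aza-CdR, 5 stood out because that difference was unlike the one between clorgyline and control in the same line, by a test of the difference between both. The difference with 5-Aza-CdR minus the difference without it was 1.13 for DEFB1 (adjusted p = 0.00797), -1.21 for CERKL (0.0305), -0.82 for ABCA1 (0.0258), -0.96 for SLC30A1 (0.021) and -0.84 for KLF10 (0.0206). The genes were picked for being extreme in the comparison with 5-Aza-CdR, whose difference enters this test, which favors such a call.

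A further 18 of these genes' values stood out because the HL60 difference was unlike that of T24 cells, again by a test of the difference itself. The HL60 difference minus the T24 difference was 2.24 for FOS (adjusted p = 0.000774), 1.57 for RNY1 (0.00541), 1.25 for DEFA1B (0.00943), 1.44 for RNU1-1 (0.00554), 1.16 for DEFB1 (0.00016), 1.11 for DEFA3 (0.00649), 1.12 for DEFA4 (0.00801), 1.17 for RNVU1-7 (0.00863) and 1.38 for SCARNA9 (0.019). On the negative side it was -1.71 for CERKL (0.000291), -1.16 for ABCA1 (1.38e-05), -1.61 for APP (0.0157), -1.09 for KCNAB1 (0.000388), -0.90 for SLC30A1 (0.00336), -0.92 for GOLIM4 (0.0175), -0.96 for KLF10 (4.8e-05), -1.17 for AGPAT5 (0.0064) and -0.96 for ID2 (0.00282). The genes were picked for being extreme in HL60, which favors such a contrast with any other line, and line and dose cannot be told apart.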

How the results depend on the processing

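No named gene that passed could change the sign of its difference under these alternatives. The other fits keep the same group means, and the arrays of the 2 groups did not overlap in any called gene. The balance of higher and lower calls turned in 2 tests. Of the 80 transcripts whose difference was unlike that between clorgyline and control, 35 were higher and 45 lower, against 87 and 41 without 5-Aza-CdR replicate 1; of the 1728 unlike T24, 901 and 827, against 623 and 638 without T24 combination replicate 1 and 731 and 736 without HL60 5-Aza-CdR replicate 1. The 1128 transcripts called became 180 at an adjusted p under 0.01, 32 with a fold over 2 added, 4138 with all 24 arrays fitted together and 1469 with a replicate block, which kept 1126 of them. The replicate numbers are not stated to pair the arrays, and deviations of same-numbered arrays correlated at -0.072 to 0.176; the block lost no call of a named gene. With each array left out the count ran from 176 to 1004. The 33 transcripts past the methods' limits became 20 with 1 probe per gene, and 33 to 115 with each array left out. The 80 transcripts became 1598 with all 24 arrays (821 higher, 777 lower), and 20 to 128 with each array left out. The 1728 ran from 707 to 2033. The share of higher calls, 54.1% in all, was 67.2% at an adjusted p under 0.01 and 75% with the fold added. Of the 102 named genes that passed, 81 kept their calls with the 4 arrays alone, 79 with all 24 arrays and 84 with a trended robust prior. The second quantile normalization and the common median could change nothing, since the arrays already share 1 distribution. The cause of these changes was not tested. Genes near the array median are limited by their low signal over background. The counts of list members and of the T24 test with each array left out were added after seeing the data.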
